A study of Mus musculus with 28 samples.

Results

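The 7 whole testes among the 28 RNA-seq samples used here fell into 2 sides when they were selected on the measured level of Prm1, which codes for protamine 1, a DNA-packing protein of elongating spermatids. Testes with a summed Prm1 value of 10 RPKM (reads scaled to transcript length and to the mapped reads of the library) or more were taken as holding late spermatids, and those below 10 RPKM as lacking them. Late spermatids were present by this rule in 3 testes, from wildtype mouse 178 and knockout mice 214 and 273. They were lacking in 4 testes, from wildtype mouse 648 and knockout mice 269, 286 and 308. The testes just inside and just outside the threshold had 603 RPKM (mouse 178) and 1.16 RPKM (mouse 286). The other samples are 20 libraries of germ cells sorted from 8 mice as spermatogonia, primary spermatocytes, secondary spermatocytes or spermatids, and 1 wildtype ovary.

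Wildtype and knockout mice were siblings, labelled C57BL/6 and described in the methods as of a mixed 129SvEvBrd:C57BL/6 background. The knockouts carry a constitutive deletion of Csmd1, a gene for a large membrane protein with CUB and Sushi domains that acts on complement, in which exon 1 and part of intron 1 gave way to a lacZ/neomycin cassette. No mouse was treated. For each mouse 1 testis was dissociated and used whole, and the other was sorted by Hoechst stain. Whole testes came from sexually immature and from sexually mature males, and the paper names a single age for each group, 40 days for the mature one. Mouse 178 is listed at 40 days, and the sorting protocol names mature males of about 40 days, which as written also covers mice 286 and 648, whose other testis was sorted. No individual age was found in the sources used here for mice 214, 269, 273 and 308, so their age group is not known here. The part of age in the difference between the sides was not tested. Fewer cells of a type and less RNA per cell cannot be told apart in whole testes.

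In the testis, spermatogonia divide at the base of the tubule, their progeny pass through meiosis as spermatocytes, and the haploid products become round and then elongating spermatids. In elongating spermatids histones are removed, transition proteins take their place, and protamines then replace the transition proteins and compact the DNA. The mRNAs of these proteins are made in round spermatids and stored before they are translated. The transcription factor CREM, which binds cAMP response elements in promoters, is required for many of these genes. Sertoli cells nurse the germ cells within the tubule, and Leydig cells outside it make testosterone.

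The 7 testis libraries held an estimated 31.3 M to 53.2 M mapped reads each. The library of mouse 648 was quantified in another set than the other 6, judged by which transcripts have no value. A few transcripts with repeat-like sequence (Gm26870 and similar) took 17.9% of all RPKM in mouse 178, 6.38% in mouse 214 and 0.672 to 5.81% in the others. Across genes, 2 testes of the same side correlated with r = 0.930 to 0.975 and testes of different sides with r = 0.827 to 0.905. Because measured Prm1 made the sides, every gene of this contrast is given as a description with no test.

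The clearest pattern was in the genes for nuclear proteins of elongating spermatids, which were abundant on one side and near 0 on the other. Prm1 was at 603, 1152 and 1922 RPKM in mice 178, 214 and 273, and at 0.850, 1.16, 0.439 and 0.681 RPKM in mice 269, 286, 308 and 648. Prm2, coding for the second protamine, was at 2374, 4427 and 4079 RPKM against 1.83, 1.68, 0 and 0.456 RPKM in the same order of mice. Tnp1, coding for transition protein 1, was at 889, 1561 and 2464 RPKM against 1.91, 1.36, 0.049 and 4.0 RPKM. In each of these genes mouse 178 was the lowest testis with late spermatids and still far above every testis without them. These are RPKM as deposited, which summed over genes to 6.97e+05 in mouse 178, 1.14e+06 in mouse 214 and 1.32e+06 in mouse 273. The order within the side was thus not separated from the scale of the libraries. Tnp2, coding for transition protein 2, was at 869, 1188 and 1933 RPKM against 5.53, 4.99, 1.43 and 2.33 RPKM, again with mouse 178 lowest on its side and mouse 308 lowest on the other.

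Prm1, Prm2, Prm3 and Tnp2 lie side by side on chromosome 16 of GRCm38 (mm10). Tnp2 spans positions 10787936 to 10788660, Prm3 10790505 to 10790914, Prm2 10791380 to 10796134 and Prm1 10796326 to 10805839, all on the minus strand. Prm3, which codes for an acidic protein despite its name, was at 206, 279 and 394 RPKM against 3.75, 6.49, 0.658 and 7.76 RPKM. Tnp1 lies apart, on chromosome 1. Together Prm1, Prm2, Tnp1 and Tnp2 took 0.263% of mapped reads in mouse 178 (95% Wilson interval 0.261 to 0.264%), 0.463% in mouse 214 and 0.558% in mouse 273. In the other testes the share was at most 0.000543% (mouse 269, 245 reads, 0.000479 to 0.000615%) and at least 0.000101% (mouse 308, 49 reads, 7.64e-05 to 0.000134%). These intervals cover counting error only.

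**Figure D1:**
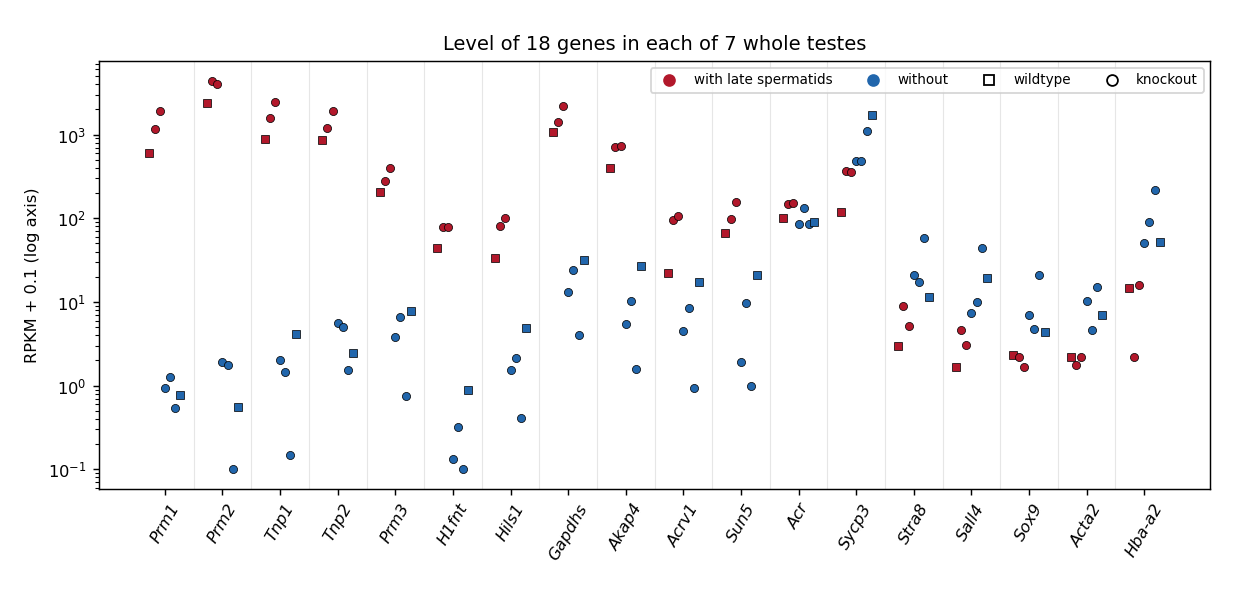
Level of 18 genes in each of the 7 whole testes, as RPKM + 0.1 on a log axis, with 1 point per testis. Red points are the 3 testes with late spermatids and blue points the 4 without, squares are wildtype and circles knockout. The protamine and transition protein genes stand apart on the 2 sides, while Acr overlaps and Sycp3, Stra8, Sall4, Sox9, Acta2 and Hba-a2 are higher in the testes without late spermatids.

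The bases before the start sites of these genes are shown because CREM binds cAMP response elements in promoters. They are 120 bases upstream of the RefSeq start site on the gene's own strand (GRCm38.p6), and capitals mark each match to TGANNTCA, an 8-base form of the cAMP response element that leaves the centre free and reads the same on both strands.
Prm1, chr16:10796824-10796943, minus strand: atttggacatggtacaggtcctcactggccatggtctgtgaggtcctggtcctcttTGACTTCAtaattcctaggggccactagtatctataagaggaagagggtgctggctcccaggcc
Tnp1, chr1:73015900-73016019, minus strand: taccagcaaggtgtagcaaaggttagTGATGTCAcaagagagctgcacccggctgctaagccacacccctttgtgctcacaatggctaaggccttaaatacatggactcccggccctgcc
Prm3, chr16:10790915-10791034, minus strand: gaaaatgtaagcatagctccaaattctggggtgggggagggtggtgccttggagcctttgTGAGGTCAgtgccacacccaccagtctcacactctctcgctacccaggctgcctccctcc
Spata3, chr1:86021825-86021944, plus strand: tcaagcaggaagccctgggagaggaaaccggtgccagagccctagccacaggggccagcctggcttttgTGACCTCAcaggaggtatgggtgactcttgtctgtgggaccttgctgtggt
Cstl1, chr2:148750241-148750360, plus strand: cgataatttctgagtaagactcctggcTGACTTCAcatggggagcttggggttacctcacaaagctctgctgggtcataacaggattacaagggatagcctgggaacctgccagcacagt
Prm2, chr16:10792106-10792225, minus strand: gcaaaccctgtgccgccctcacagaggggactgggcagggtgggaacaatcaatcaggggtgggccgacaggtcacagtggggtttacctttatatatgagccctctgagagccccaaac
Tnp2, chr16:10788656-10788775, minus strand: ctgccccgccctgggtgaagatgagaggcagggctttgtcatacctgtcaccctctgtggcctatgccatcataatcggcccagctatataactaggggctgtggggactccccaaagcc

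Of 10 genes searched, the first 5 shown hold 1 match each, starting 51 to 94 bases before the start site. The other 5, Prm2, Tnp2, Spem1, Ttc24 and Dnajb8, hold none in a window of 250 bases before to 50 after the start. Over the same window TGANNTCA was found in 37.9% of the 391 genes higher by 4 or more on the log2 scale that have a RefSeq promoter. The share was 24.9% of the 1668 genes called higher, 11.0% of the 2114 called lower and 14.1% of the 14360 of all genes tested. The full palindrome TGACGTCA, which TGANNTCA includes, was found in 3.32, 3.30, 2.51 and 3.05% of the same sets. TGACG on either strand, which overlaps the palindrome, was found in 18.4, 26.3, 31.5 and 30.5%. Of all 27025 genes of the promoter table, 15.9% hold TGANNTCA, 2.03% the palindrome and 23.0% TGACG. A match is a run of letters and was not tested as a binding site.

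Across all genes the sides were compared on quantile-normalised log2(RPKM + 0.1), with transcripts summed per gene. A gene was called when the values of the sides did not overlap and their means differed by 1 or more on the log2 scale. Of 22763 genes with a mean of at least 0.1 RPKM, 2444 (10.7%) were called higher and 3029 (13.3%) lower in testes with late spermatids. The sizes were not alike in the 2 directions. Among genes called higher, 1551 differed by 2 or more and 531 by 4 or more, and among those called lower 312 and 2 did. The median difference was 2.44 for genes called higher and -1.37 for genes called lower, and -0.27 over all genes. Of the genes called higher, 182 were listed at 0 in all 4 testes without late spermatids, and with these at a floor of 3 reads per library the median was 2.46. Without quantile normalisation the median over all genes was -0.11 and the calls were 2831 higher and 2150 lower, so that genes called higher made up 56.8% of calls in place of 44.7%.

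**Figure D2:**
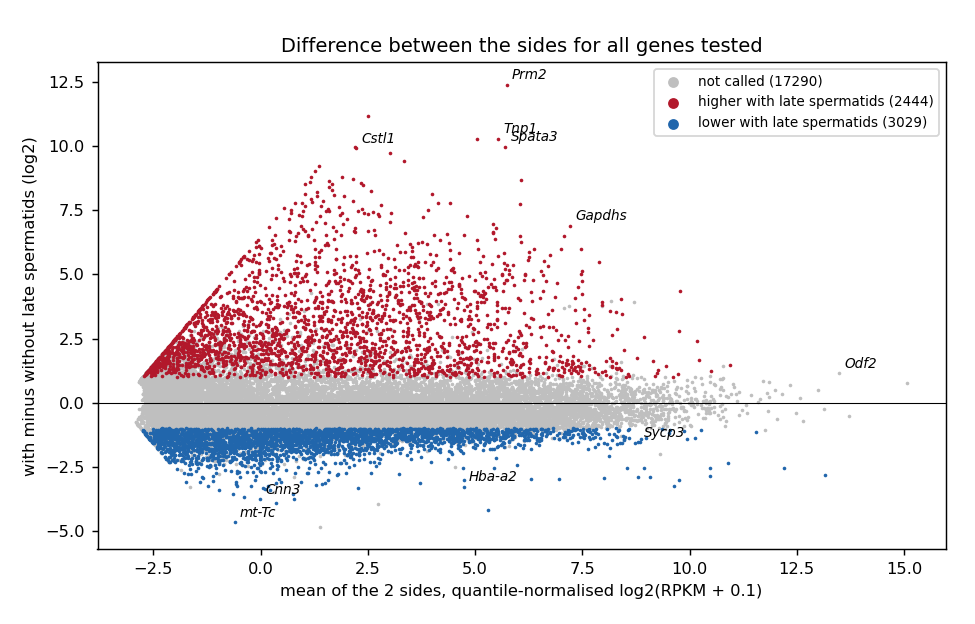
Difference between testes with and without late spermatids (vertical, log2) against the mean of the 2 sides (horizontal, quantile-normalised log2(RPKM + 0.1)) for the genes tested, 1 point per gene. Red points are the 2444 genes called higher with late spermatids and blue points the 3029 called lower, and grey points were not called. The red points reach 12.39 (Prm2), with 531 at 4 or more, and 2 blue points lie at -4 or below.

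After Prm2 (12.39 ± 1.13, SE of the difference of means of 3 and 4 testes), the largest differences among named genes with a mean of at least 1 RPKM were those of Tnp1 (10.28 ± 1.16) and Prm1 (10.27 ± 0.31). Spata3, a spermatid gene, was at 1081, 1557 and 2007 RPKM against 1.15, 4.81, 0 and 10.4 RPKM. Cstl1, a member of the cystatin family of protease inhibitors, was at 97.7, 164 and 165 RPKM against 0.068, 0.130, 0 and 0 RPKM. Spem1, which spermatids need to shed their cytoplasm, was at 169, 218 and 311 RPKM against 0.064, 0.119, 0.079 and 0.271 RPKM. All 3 were near or at 0 in mouse 308 and high in every testis with late spermatids. Smim23, a small membrane protein gene, was at 29.1, 51.2 and 62.7 RPKM and at 0 in all 4 other testes, which makes it at least 244-fold higher against 3 reads per library. Ttc24 (8.80 ± 0.61) and Dnajb8, a chaperone gene of the DnaJ family (8.71 ± 0.86), complete the 10 with Tnp2 (8.68 ± 0.52).

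The genes of elongating spermatids outside the nucleus followed the same sides. Of 11 measured genes for the cytoskeleton, sheath and tail, 10 were called higher, and their median difference was 6.49. Akap4, the main protein of the fibrous sheath of the tail, was at 396, 704 and 733 RPKM against 5.34, 10.2, 1.5 and 26.8 RPKM. Odf1, a protein of the outer dense fibres, was at 91.9, 230 and 252 RPKM against 2.57, 5.03, 0.559 and 2.82 RPKM. Smcp, a protein of the mitochondrial sheath, reached 144 RPKM in mouse 648, the highest testis without late spermatids, against 1255, 1225 and 1475 RPKM. Odf2 differed by 1.14 ± 0.52 with overlapping sides and was not called. The 7 measured genes for late nuclear proteins, which include the linker histone genes H1fnt (7.87 ± 0.95) and Hils1 (5.27 ± 0.91), were all called higher, with a median of 8.68.

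Genes known from round spermatids differed by less at the median, and not all were called. Of 15 measured, 11 were called higher and none lower, with a median difference of 3.62. Tssk6, a spermatid kinase, was at 25.7, 31.0 and 61.4 RPKM against 0.1, 0.204, 0.015 and 0.028 RPKM. Acrv1, a protein of the acrosome, was at 22.2, 96.3 and 107 RPKM against 4.43, 8.43, 0.847 and 17.0 RPKM, so that mouse 648 lay close to mouse 178. The 4 that were not called are Acr, Acrbp, Zpbp and Dpy19l2, with differences of 0.55, 0.51, 0.55 and -0.25. None of these 4 passed between sorted spermatids and primary spermatocytes, as given below, so they do not mark round spermatids alone. Acr, coding for the protease acrosin, was at 99.6, 147 and 151 RPKM against 85.4, 134, 85.4 and 90.3 RPKM, with the sides overlapping.

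Among regulators and enzymes of spermatids some members were called and others not. Of 8 measured transcription regulators 2 were called higher, beside 10.7% of all genes, and their median difference was 0.54. Crem was at 548, 1552 and 2299 RPKM against 553, 727, 619 and 1559 RPKM, and the sides overlapped. Fhl5, a coactivator of CREM also known as ACT, was at 24.2, 85.6 and 118 RPKM against 0.156, 0.782, 0 and 3.93 RPKM. Kif17, the motor that moves ACT out of the nucleus, was at 51.1, 112 and 118 RPKM against 4.35, 9.81, 2.26 and 9.56 RPKM. Thus the coactivator and its motor stood apart on the 2 sides where the factor did not.

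Among 6 genes for histone removal only Chd5, a chromatin remodeller, was called, at 95.2, 123 and 233 RPKM against 5.41, 11.3, 5.96 and 13.8 RPKM. The median of that list's differences was -0.57, while its median level was 6.52 to 6.78 in testes with late spermatids and 6.17 to 6.48 in those without, so that these summaries differ in sign. Of 6 genes for mRNA storage and translation in germ cells 1 was called higher, Paip2 (1.67 ± 0.14), an inhibitor of the poly(A)-binding protein, and the list median was 0.28. Of 9 genes for glycolysis in sperm 5 were called higher, and the median was 1.68. Gapdhs, the spermatid form of GAPDH, was at 1063, 1423 and 2174 RPKM against 13.1, 24.2, 3.91 and 31.7 RPKM, and Hk1, a hexokinase, differed by 2.80 ± 0.32. Ldhc, the lactate dehydrogenase of germ cells, differed by 0.72 ± 0.68 and was not called. Without quantile normalisation 3 of the glycolysis genes and 10 of the round spermatid genes were called.

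**Figure D3:**
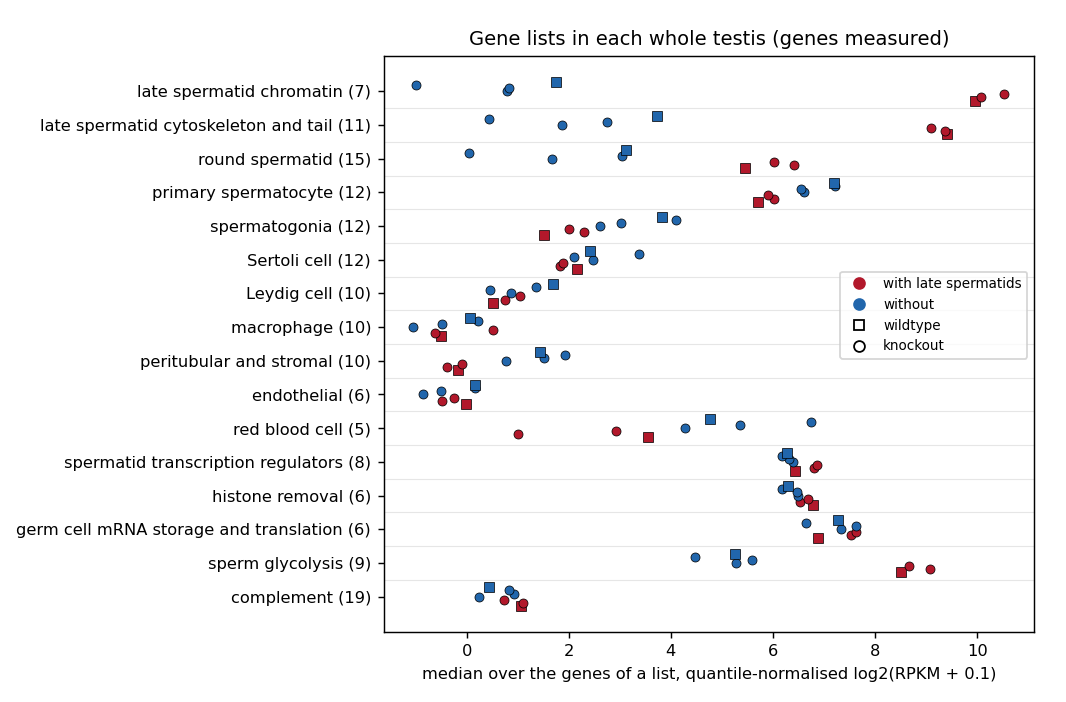
Median over the measured genes of each list (number in brackets) in each whole testis, as quantile-normalised log2(RPKM + 0.1). Red points are testes with late spermatids and blue points those without, squares are wildtype and circles knockout. The 3 spermatid lists and sperm glycolysis are higher in all red points, primary spermatocyte, spermatogonia, peritubular and red blood cell lists are higher in all blue points, and the rest overlap or differ by less than 1.

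Among genes of earlier germ cells, those called were lower in testes with late spermatids, by smaller amounts. Of 12 genes known from primary spermatocytes 5 were called lower and none higher, with a median of -1.02. Sycp3, a protein of the synaptonemal complex that pairs chromosomes in meiosis, was at 119, 367 and 354 RPKM against 487, 487, 1114 and 1714 RPKM. Meiob, which acts in meiotic recombination, was at 1.17, 1.71 and 2.12 RPKM against 5.51, 4.6, 9.99 and 6.26 RPKM. Both sets of values do not overlap, and mouse 178, the library with the lowest summed RPKM, was lowest in each. Of 12 spermatogonial genes 6 were called lower and none higher, with a median of -1.30. Sall4, a transcription factor of undifferentiated and differentiating spermatogonia, was at 1.57, 4.49 and 2.93 RPKM against 7.33, 9.92, 44.3 and 19.5 RPKM. Stra8, which starts meiosis in response to retinoic acid, was at 2.85, 8.98 and 5.09 RPKM against 21.1, 17.1, 58.1 and 11.3 RPKM.

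Among lists for somatic cells of the testis, the Sertoli cell list held the most genes called lower, beside 13.3% of all genes. Of 12 Sertoli cell genes 6 were called lower and none higher, with a median of -1.34. Sox9, a factor that specifies Sertoli cells, was at 2.20, 2.12 and 1.55 RPKM against 6.89, 4.6, 20.7 and 4.32 RPKM. Amh, anti-Müllerian hormone of immature Sertoli cells, was at 0.221, 0.180 and 0.192 RPKM against 1.38, 0.786, 1.77 and 0.519 RPKM. In both genes mouse 308 was the highest testis and the sides did not overlap. Of 10 peritubular and stromal genes 2 were called lower, a share near that of all genes, Acta2 (-2.03 ± 0.39) and Myh11 (-1.61 ± 0.19), both of smooth muscle, all 10 had a negative difference, and the median was -1.22. Of 10 Leydig cell genes Star (-1.26 ± 0.34), which carries cholesterol into mitochondria, was called lower and Insl3 (1.66 ± 0.54), a peptide hormone, higher. Neither was called without quantile normalisation, and the Leydig list median was -0.70, or -0.43 as deposited.

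The lists for macrophages, endothelium and red blood cells held members that differed in opposite directions. Of 10 macrophage genes 2 were called higher and none lower, beside 10.7% and 13.3% of all genes, with a median of -0.13, or 0.35 as deposited. Aif1, used as a marker of macrophages, was at 421, 1096 and 914 RPKM against 22.4, 36.9, 4.45 and 13.4 RPKM, whereas Csf1r, a defining receptor of macrophages, was at 0.543, 0.552 and 1.42 RPKM against 0.549, 0.623, 1.15 and 0.401 RPKM. Of 6 endothelial genes Vwf (2.26 ± 0.42) and Tek (1.10 ± 0.38) were called higher and Cdh5 (-1.11 ± 0.48) lower, and Cdh5 was not called as deposited, where the list median was 0.32 in place of 0.04. The 4 globin genes measured were called lower and Alas2, a haem synthesis gene, higher, with a list median of -3.12. Hba-a2 was at 14.7, 2.12 and 15.9 RPKM against 50.1, 89.5, 220 and 52.4 RPKM. Of 5 epididymis genes only Rnase10 passed the filter, at 1.84, 3.96 and 4.02 RPKM against 4.36, 4.96, 2.26 and 8.44 RPKM. The part of these cell types in the results was not tested.

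The 10 largest differences in the other direction were smaller. They include 4 mitochondrial tRNA genes and the small nucleolar RNA gene Snord42a, all between 65 and 71 nt long. mt-Te was at 14.4, 39.8 and 0.925 RPKM against 93.4, 90.9, 437 and 263 RPKM, and mt-Tc had 1, 0 and 0 reads against 3, 5, 9 and 70 reads. Cnn3, an actin-binding calponin, was at 0.205, 0.300 and 0.398 RPKM against 2.06, 1.57, 7.23 and 7.42 RPKM. Hs6st2, a heparan sulfate sulfotransferase, was at 0.457, 0.403 and 0.164 RPKM against 4.27, 2.03, 6.76 and 2.19 RPKM. Spp1, which codes for osteopontin, differed by -3.33 ± 1.23.

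The testes without late spermatids differed among themselves. The median of the round spermatid list was 0.04 in mouse 308, 1.67 in mouse 269, 3.03 in mouse 286 and 3.11 in mouse 648, against 5.46 to 6.41 in the testes with late spermatids. The spermatogonial list had another order, with 2.62 in mouse 269, 3.03 in mouse 286, 3.83 in mouse 648 and 4.10 in mouse 308, against 1.51 to 2.29. Mouse 308 was also highest for Sertoli cell genes, with a median of 3.37 against 2.10 to 2.47 in the other 3 testes without late spermatids. The testes with late spermatids lay closer together on the chromatin list, with medians of 9.95, 10.07 and 10.53 in mice 178, 214 and 273.

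Complement genes are the subject of the study, and 19 were measured. None was called lower and 6 were called higher, beside 13.3% and 10.7% of all genes, with a list median of 0.27. Cd46, a membrane regulator that mouse makes in spermatids for the acrosome, was at 3.40, 14.2 and 9.85 RPKM against 0.487, 0.234, 0 and 0 RPKM. Cd55, a regulator of the C3 convertase, was at 16.2, 27.1 and 30.7 RPKM against 8.39, 7.74, 10.8 and 12.5 RPKM. The other 4 called were Cd59a (1.98 ± 0.32), Csmd1 (2.24 ± 0.30), Csmd3 (1.55 ± 0.32) and C4b (1.05 ± 0.46), and as deposited 4 complement genes were called in all. C3, the central component, was at 1.72, 3.29 and 1.55 RPKM against 1.23, 2.05, 3.04 and 2.87 RPKM, with overlapping sides.

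Csmd1, the deleted gene, was at 1.25 RPKM in wildtype mouse 178 and at 2.10 and 1.76 RPKM in knockout mice 214 and 273, summed over its transcripts. In the testes without late spermatids it was at 0.058 RPKM in wildtype mouse 648 and at 0.217, 0.396 and 0.184 RPKM in knockout mice 269, 286 and 308. The longest transcript had 173 reads in mouse 178 and 387 and 237 in mice 214 and 273, against 19 in mouse 648 and 25, 41 and 19 in mice 269, 286 and 308. For the sum and the longest transcript the knockouts were thus not below the wildtype testis of their side. Of the 7 Csmd1 transcripts, 5 had fewer reads and a lower RPKM in both mice 214 and 273 than in mouse 178, the most abundant of them with 22 and 8 against 55 reads. These values mix reads of many exons and are not of exon 1 alone. They therefore do not check the deletion or show which parts of the gene were lower or higher in knockouts.

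The genes called on the 2 sides differed in features that the Prm1 rule did not use. In the ovary of 1 wildtype mouse, which holds no spermatids, the median level was 0.266 RPKM for genes called higher, 0.025 RPKM for those higher by 4 or more, 11.3 RPKM for those called lower and 5.04 RPKM for all genes tested. Below 0.1 RPKM in the ovary were 60.8% of genes higher by 4 or more and 22.8% of all. The main transcript had a median length of 1028 nt in genes called higher and 2008 nt in genes called lower, against 1197 nt in all. Long noncoding genes made up 18.6% of genes called higher, 6.90% of those called lower and 11.9% of all. Of 924 X-linked genes 103 (11.1%) were called higher and 233 (25.2%) lower, and of 21741 autosomal genes 10.7% and 12.7%. These shares are descriptions of the called genes.

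The sorted germ cells gave measurements that the rule did not use, although mice 178, 286 and 648 gave both a whole testis and sorted cells. Their labels were checked against Prm1 first. The knockout library labelled spermatogonia of mouse 544 had 1402 RPKM of Prm1, more than the 930 RPKM of the spermatids of the same mouse, while the other libraries labelled spermatogonia had 92.9, 0.348 and 0.094 RPKM (mice 178, 286 and 648). The sorted spermatids of mice 178, 351 and 544 had 2579, 1299 and 930 RPKM. Those of mice 286 and 648, whose other testis fell on the side without late spermatids, had 2.14 and 0.579 RPKM.

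The genes higher in whole testes with late spermatids were lower in mice 286 and 648 than in mouse 178 in each stage for which they gave a library, mouse 286 having no primary spermatocytes here. For genes higher by 4 or more in whole testes with late spermatids, the median in sorted spermatids was 5.87 on the log2 scale in mouse 178, 5.88 in mouse 351 and 6.40 in mouse 544, against 3.04 in mouse 286 and 2.76 in mouse 648. In secondary spermatocytes it was 3.75 in mouse 178 against 1.53 in mouse 286 and 1.56 in mouse 648. The primary spermatocytes had 1.27 in mouse 178 and 0.18 in mouse 648, and the libraries labelled spermatogonia 1.38 in mouse 178 against -1.54 and -1.62. With 1 mouse on one side this difference was not tested. For genes called lower the order was the other way in each stage, as in spermatids with -0.32 in mouse 178 against 0.64 and 0.54.

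**Figure D4:**
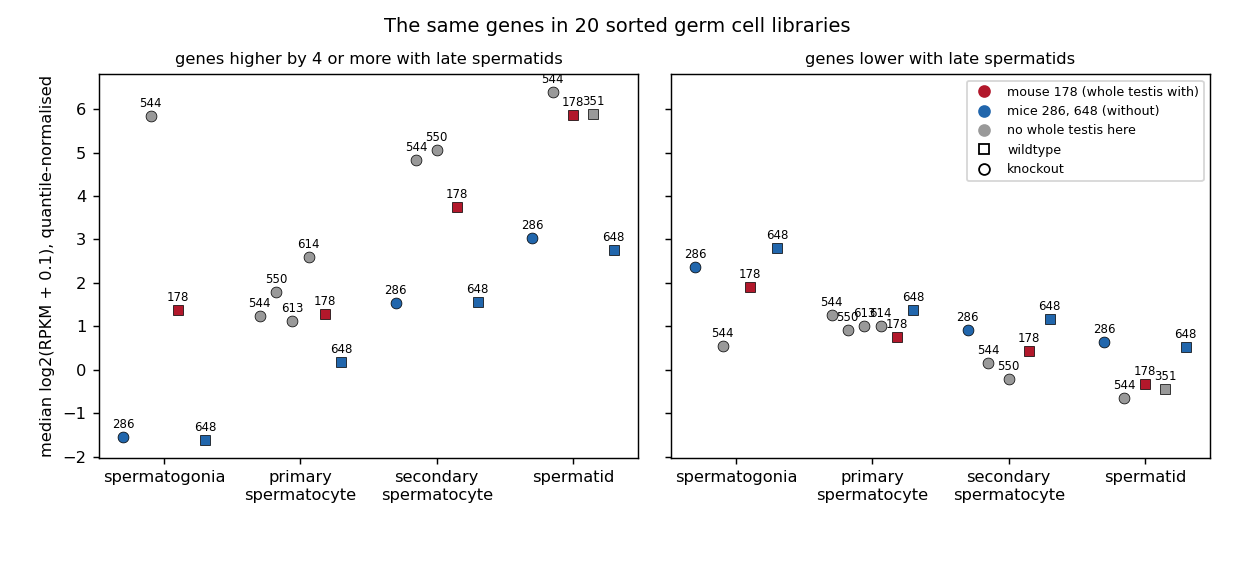
Median level (quantile-normalised log2(RPKM + 0.1)) in each of 20 sorted germ cell libraries of genes higher by 4 or more (left) and genes called lower (right) in whole testes with late spermatids, labelled by mouse. Red is mouse 178, blue are mice 286 and 648, grey are mice with no whole testis here, squares are wildtype and circles knockout. The left median rises to 5.87 to 6.40 in spermatids of mice 178, 351 and 544, and the library labelled spermatogonia of mouse 544 reaches 5.85.

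Sorted spermatids were compared with sorted primary spermatocytes over both genotypes, to place the genes called in whole testes among sorted stages. The primary spermatocyte library of mouse 613, which was kept, stood alone in having 12787 transcripts without a value and no whole-read step. With limma on 20 libraries, 2732 of 19025 genes (14.4%) were higher and 3032 (15.9%) lower in spermatids at an adjusted p of 0.05. Of the 1925 genes called higher in whole testes with late spermatids and tested here, 1136 (59.0%) were higher in spermatids and 0 lower by limma, with 1 lower at an unadjusted p under 0.05. Of the 2722 called lower, 946 (34.8%) were lower in spermatids and 15 higher (39 with the mouse as a replicate block). Without the spermatids of mice 286 and 648, a choice made after seeing the data, 1604 of 1925 (83.3%) were higher and 1132 of 2725 (41.5%) lower. Without the spermatids of mouse 544 they were 660 of 1920 (34.4%) and 494 of 2725 (18.1%).

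Compared with libraries labelled spermatogonia, 4159 genes (21.9%) were higher and 4395 (23.1%) lower in spermatids by limma. Of the genes called higher in whole testes with late spermatids 1064 (55.3%) were higher and 4 lower, and of those called lower 1660 (61.0%) were lower and 32 higher. With the mouse as a replicate block the 4 became 19 and the 32 became 61. Without the library labelled spermatogonia of mouse 544 these were 1300 of 1919 (67.7%) and 1876 of 2724 (68.9%), and without that of mouse 286, 619 of 1925 (32.2%) and 1031 of 2715 (38.0%). By the mean over libraries, 92.3% of the genes called higher had their highest level in spermatids, against 28.5% of all genes, and 70.3% of those called lower had it in spermatogonia, against 34.7%.

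Single genes that moved in both sorted comparisons include regulators and acrosomal genes of round spermatids. Chd5 rose by 4.52 ± 0.82 (log2 ± SE, adjusted p = 0.000841 by limma) over primary spermatocytes and by 3.39 ± 0.88 (adjusted p = 0.00561) over spermatogonia. Catsper4, a subunit of the sperm calcium channel, rose by 4.66 ± 1.07 (adjusted p = 0.00388) and 5.94 ± 1.15 (adjusted p = 0.000851). Of the 15 round spermatid genes 8 were higher than in primary spermatocytes and 14 higher than in spermatogonia, beside 14.4% and 21.9% of all genes. Acr rose over spermatogonia by limma, with an adjusted p of 0.00308, and differed by 0.12 from primary spermatocytes, with an adjusted p of 0.906. Acrbp, Zpbp and Dpy19l2 differed by 0.30, 0.68 and 0.24 from primary spermatocytes (adjusted p = 0.626, 0.263 and 0.724 by limma). For Fhl5 the contrasts with primary spermatocytes and with spermatogonia were 3.74 ± 1.23 (adjusted p = 0.0301 by limma) and 3.78 ± 1.33 (adjusted p = 0.0286). For Crem they were 1.63 ± 0.51 (adjusted p = 0.0217) and 2.28 ± 0.54 (adjusted p = 0.00328).

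The nuclear protein genes themselves mostly did not pass in sorted cells. Of the 7, Prm3 (4.02 ± 1.48, adjusted p = 0.0488 by limma) and Hils1 (3.49 ± 1.12, adjusted p = 0.0263) were higher than in primary spermatocytes. Prm1 differed by 2.96 ± 2.65 (adjusted p = 0.425), Prm2 by 2.87 ± 2.79 (adjusted p = 0.467) and Tnp2 by 1.98 ± 2.31 (adjusted p = 0.547). Their levels in spermatids differed widely between mice, as given above for Prm1. Of the 10 genes with the largest positive differences in whole testes, 0 passed in either sorted comparison by limma, also at an unadjusted p under 0.05. This fit did not pair libraries by mouse, so spread between mice stayed in its error. Within mouse 178 Prm1 was at 17.8 RPKM in primary spermatocytes and 2579 RPKM in spermatids. These levels were 31.3 and 930 RPKM in mouse 544 and 0.342 and 0.579 RPKM in mouse 648.

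Some genes from lists of other cell types were also higher in sorted spermatids. Of the 10 macrophage genes 2 were higher and 1 lower than in primary spermatocytes, beside 14.4% and 15.9% of all genes. Against spermatogonia 1 was higher and 6 lower, beside 21.9% and 23.1% of all genes. Aif1 rose by 4.6 ± 1.33 (adjusted p = 0.0152 by limma) over primary spermatocytes and by 4.04 ± 1.43 (adjusted p = 0.0298) over spermatogonia. Adgre1, the macrophage antigen F4/80, rose by 2.47 ± 0.43 (adjusted p = 0.00063) over primary spermatocytes and Tek by 2.72 ± 0.48 (adjusted p = 0.000687). Adgre1 was at only 0.077 to 0.255 RPKM in primary spermatocytes, and differed by 0.85 ± 0.46 (adjusted p = 0.143 by limma) from spermatogonia. Cd68, a lysosomal protein of macrophages, differed by -1.49 ± 0.52 (adjusted p = 0.0382) from primary spermatocytes, and Csf1r by -1.71 ± 0.49 (adjusted p = 0.00981) from spermatogonia. Cd46 rose by 3.83 ± 1.26 (adjusted p = 0.0301) over primary spermatocytes and Cd55 by 1.83 ± 0.40 (adjusted p = 0.00275). Csmd1 differed by 1.80 ± 0.76 (adjusted p = 0.0845) from primary spermatocytes and rose by 2.20 ± 0.82 (adjusted p = 0.038) over spermatogonia.

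Spermatogonial genes fell mainly against spermatogonia. Sall4 differed by -6.46 ± 1.01 (adjusted p = 0.000275 by limma), Dmrt1, a regulator of spermatogonial fate, by -5.35 ± 0.74 (adjusted p = 0.000163) and Stra8 by -5.11 ± 0.92 (adjusted p = 0.000576). Of 12 spermatogonial genes 9 were lower than in spermatogonia, beside 23.1% of all genes. Only 2 were lower than in primary spermatocytes, a share near the 15.9% of all genes. Of 12 primary spermatocyte genes 4 were lower than in primary spermatocytes, among them Meiob (-2.43 ± 0.80, adjusted p = 0.0304) and Piwil1, a small RNA-binding protein of meiosis (-3.77 ± 0.51, adjusted p = 0.000142). Against spermatogonia 3 of the primary spermatocyte genes were higher and 3 lower, near the shares of all genes (21.9% and 23.1%). Of 12 Sertoli cell genes 0 passed between spermatids and primary spermatocytes by limma, also at an unadjusted p under 0.05, and 5 were lower than in spermatogonia.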

How the data were processed

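PolyA RNA of 28 mouse samples was sequenced as paired reads. The authors aligned the reads with TopHat2, quantified the transcripts of an Ensembl annotation, and deposited these levels as RPKM. Transcripts were summed per gene through GENCODE names (GRCm38) and quantile-normalised on log2(RPKM + 0.1), where the pseudocount understates changes of low genes. Reads count for every transcript that they overlap, so gene sums count shared reads more than once. Read numbers are those of the most abundant transcript, recovered from the smallest step between values. In the testes 93.3 to 94.6% of values lay on whole reads.

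Genes with a mean of at least 0.1 RPKM were kept. The contrast of whole testes has no test, because measured Prm1 chose its sides. Sorted germ cells were fitted with limma 3.58.1 in R 4.3.3 over all groups of stage and genotype, with trend, and p-values were adjusted by Benjamini-Hochberg over all genes. The code was tested on simulated data. Pairs of libraries from the same mouse correlated in their deviations from group means with a median of 0.47 (22 pairs, lowest -0.20), and pairs from different mice with -0.04. The labels name the mouse of each library, so that the replicates pair by animal.

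The named genes are all members of the gene lists and the 10 largest differences in each direction among called genes with a mean of at least 1 RPKM, leaving out Gm and Rik symbols. The members and lists were chosen with earlier results of these data known. Promoters are from RefSeq (GRCm38.p6). Alternatives were other pseudocounts, filters and scaling, subsets of mice, the replicate block and each library left out.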

Additional observations from a re-analysis of the deposited data

Results flagged for a closer look

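Among the 4 testes without late spermatids, 1 testis stood apart from the others for 6 named genes, relative to the range of the group on the quantile-normalised log2 scale. Mouse 308 had 11.9606 for Odf2. Mouse 286 had -2.9285 for Fscn3, which rests on 1 read against 0 in the other 3 testes. Mouse 648 had 6.8194 for Piwil1, 7.5716 for Mybl1, 3.7454 for Rnf8 and 3.9769 for Cd55. Chance alone marks about 1 in 20 such groups, and over all the named genes this rate gives at least as many as 6. The 6 genes are therefore listed as a description only. The library of mouse 648 was also the only testis quantified in another set.

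For 15 named genes flagged here the difference between the sides had opposite directions in the 1 wildtype testis per side and in the knockouts. They are not all such genes, as Dpy19l2 had -1.78 in wildtype and 0.34 in knockout testes. None of these differences was tested. The log2 differences in wildtype and in knockout testes were -0.4469 and 0.9689 for Zpbp, -0.8459 and 0.6683 for Gfra1, and 1.6552 and -1.6767 for Uchl1. They were -0.5787 and 2.0638 for Cyp17a1, 0.9390 and -1.9165 for Nr5a1, and 0.1365 and -1.8288 for Col1a2. Among spermatid regulators they were -0.5534 and 1.4585 for Crem, -1.9895 and 0.5750 for Tbpl1, and -0.4484 and 0.8515 for Gtf2a1l. For histone removal they were 1.6132 and -1.5756 for Rnf8 and -1.2183 and 0.9101 for Psme4. For mRNA storage they were -0.7485 and 0.7135 for Ddx25 and -0.9722 and 0.7487 for Papolb. Eno4 had -0.0876 and 0.6304, and Cd55b had -0.4157 and 0.7147.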

How the results depend on the processing

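In whole testes no gene was called in opposite directions under any alternative run. With a pseudocount of 1, 1336 genes were called lower, and with a difference of 2 or more 1551 were called higher and 312 lower. Leaving out 1 testis at a time gave 2488 to 3371 genes higher and 2751 to 3828 lower. The macrophage list median then ran from -0.52 to 0.10 and the endothelial from -0.12 to 0.28, so neither has a direction. The cause was not tested.

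For spermatids minus primary spermatocytes, leaving out 1 library at a time gave 1795 to 2997 genes higher and 1680 to 3574 lower. Of genes called in whole testes, 660 to 1393 of those higher were higher and 494 to 1058 of those lower were lower. All 4 lowest counts came without the spermatids of mouse 544, where Tnp2 turned to -0.29 (range up to 4.25). Without the wildtype primary spermatocytes of mouse 178, 1852 genes were lower, and without those of mouse 648, 610 of the genes lower in whole testes were lower. Wildtype samples alone gave 1326 higher, 727 lower and 333 of the genes lower in whole testes. Among mice with no whole testis only knockouts gave both stages, and the spermatids of mouse 544 were their lone spermatid library. That fit gave 1240 lower and 527 of those genes, with Prm1 at 4.56, Prm2 at 4.29 and Tnp2 at 4.19. These values rest on that 1 library and were not replicated.

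For spermatids minus spermatogonia the ranges were 2602 to 4562 higher, 2514 to 5087 lower, 619 to 1300 of the genes higher in whole testes and 1031 to 1876 of those lower. The lowest came without the spermatogonia of mouse 286 and, except for genes higher, the highest without the library labelled spermatogonia of mouse 544. Without the spermatids of mouse 544, 707 of the genes higher in whole testes were higher. In mice with no whole testis, 1 library a stage, 0 genes were higher and 0 lower by limma (1199 at an unadjusted p under 0.05), with 0 of the genes called in whole testes in either direction. There Prm1 was at -0.26, Prm2 at -0.35 and Tnp2 at -0.16. The lone libraries are assumed to vary like the other groups.

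With the mouse as a replicate block, spermatids had 3695 genes higher and 4541 lower than primary spermatocytes and 5342 and 5551 against spermatogonia, which moved these counts by less than 1.5 times. Of genes called higher in whole testes 1550 of 1925 (80.5%) were then higher in spermatids than in primary spermatocytes. Of those called lower 1364 of 2722 (50.1%) were then lower. The few genes that went against their direction in whole testes rose more, as given with the sorted comparisons. The p-values of single genes are from the fit without this block. Depth limits genes near 0, where a few reads make up a value, and p-values measure the spread between libraries of few mice.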
